A study of Homo sapiens with 4 samples.

Results

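The 10 genes described here encode RNA-binding proteins that set neural splicing, RNA stability or translation: PTBP1, PTBP2, NOVA1, NOVA2, RBFOX2, SRRM4, ELAVL2, ELAVL3, ELAVL4 and MSI1. They were taken by symbol, and each symbol matched 1 of the 62696 genes in every count table. RNA was measured in NT2 cells (NTERA-2), a human embryonal carcinoma line that can be driven to form neurons. There was 1 library of cells carrying an empty vector, given as wild type in genotype, and there were 3 libraries labelled as a HYDIN2 knockdown, called labelled replicates 1, 2 and 3 here. The comparison asks how the RNA of these genes differed between the labelled knockdown and the vector control. How the knockdown was made, whether the replicates were separate cultures and whether any line was 1 clone is not given in the sources used here, so the spread between replicates may be technical.

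As background, PTBP1 is the polypyrimidine tract-binding protein of most non-neuronal cells, where it represses exons that neurons include. Its paralog PTBP2 takes its place as neurons form, and PTBP1 itself limits PTBP2 by promoting the skipping of a short PTBP2 exon, which sends the transcript to nonsense-mediated decay. NOVA1 and NOVA2 bind YCAY clusters, RBFOX2 binds GCAUG, and SRRM4 promotes the inclusion of neuronal microexons. The neuronal ELAV-like proteins (HuB, HuC and HuD, from ELAVL2, ELAVL3 and ELAVL4) bind AU-rich and U-rich RNA and stabilise transcripts, and MSI1 is a translational regulator of neural stem cells.

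Library totals ran from 25181737 to 62904698 counts. Levels are given as CPM, the count of a gene over its library's total after scaling by the trimmed mean of M-values (TMM), and 3 counts correspond to between 0.0482 and 0.125 CPM. HYDIN2, the target named in the labels, had 12 counts (0.50 CPM) in the empty vector library. It had 150, 112 and 11 counts (2.41, 1.88 and 0.352 CPM) in labelled replicates 1, 2 and 3, so the RNA was above the control in 2 of the 3 libraries labelled knockdown. The ratios to the empty vector library were 4.82 (95% interval 2.11 to 13.5), 3.75 (1.62 to 10.7) and 0.704 (0.18 to 2.7). HYDIN2 is a near copy of HYDIN, so its counts are uncertain. The count columns are headed with other names, a LacZ control and GKAP_KIF27 sets, so what was knocked down is uncertain too. Every direction below is therefore between libraries as they were labelled. Labelled replicate 3 stood apart: 3063 of 15880 genes (19.3%) lay at least 2-fold from both other replicates in the same direction, while labelled replicates 1 and 2 differed 2-fold in 48 (0.302%). The last pair was kept as 2 samples, since its chi-square on counts of read pairs averaged 6.48 a gene over 17203 genes. Sampling noise gives 1. For genes with 40 to 400 pairs it was 1.61, against 15.6 and 16.3 for the pairs with labelled replicate 3. A technical difference would also raise the value, so it does not show that the 2 were separate cultures. The values of the 10 genes are therefore given per library, and their means also without labelled replicate 3.

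The exon through which PTBP1 limits PTBP2 is shown here because the RNA of both paralogs is compared below. Both genes carry a 34-nt exon at this place, and the capitals mark the 25 bases that are identical between them (GRCh38, plus strand, chr19:807869-807902 and chr1:96806419-96806452):
PTBP1: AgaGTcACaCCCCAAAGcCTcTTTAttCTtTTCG
PTBP2: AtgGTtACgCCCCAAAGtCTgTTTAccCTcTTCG
In GENCODE 29, 6 of the 9 PTBP2 transcripts that span this position include the exon, and 6 of 13 do for PTBP1. The deposited counts are per gene, so inclusion of either exon was not measured.

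Many neuronal genes are silenced outside the nervous system by the repressor REST, and SRRM4 in turn promotes a splice form of REST that represses poorly. Start-site windows of 300 bases from RefSeq (GRCh38.p14; 250 before the start and 50 after) were available for 7 of the 10 genes, 21 windows in all. The left part of the REST motif, CAGCACC, was looked for on both strands and was found in 3 of the 21 windows, against 7.75% of 35116 windows of all genes. The right part, GGACAG, was in 4 of 21 windows, at ELAVL2 and ELAVL4, against 20.5% of all. These genes have 6 and 7 of the 21 windows. Overlapping ELAVL2 windows share the same match, which was counted in each, so the windows are not independent. The 3 windows with CAGCACC are printed because they belong to SRRM4, NOVA1 and PTBP1, 3 of the genes whose levels follow. Capitals mark the match, which reads GGTGCTG where it lies on the other strand, and each window is 5′ to 3′ on the strand of its gene (SRRM4 plus, chr12:118981291-118981590; NOVA1 minus, chr14:26597984-26598283; PTBP1 plus, chr19:797202-797501):
SRRM4: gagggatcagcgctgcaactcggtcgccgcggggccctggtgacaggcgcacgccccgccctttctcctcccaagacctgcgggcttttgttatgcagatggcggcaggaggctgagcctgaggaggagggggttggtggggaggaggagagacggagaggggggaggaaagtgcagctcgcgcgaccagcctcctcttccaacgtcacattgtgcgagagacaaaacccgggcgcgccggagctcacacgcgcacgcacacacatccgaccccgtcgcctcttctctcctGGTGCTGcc
NOVA1: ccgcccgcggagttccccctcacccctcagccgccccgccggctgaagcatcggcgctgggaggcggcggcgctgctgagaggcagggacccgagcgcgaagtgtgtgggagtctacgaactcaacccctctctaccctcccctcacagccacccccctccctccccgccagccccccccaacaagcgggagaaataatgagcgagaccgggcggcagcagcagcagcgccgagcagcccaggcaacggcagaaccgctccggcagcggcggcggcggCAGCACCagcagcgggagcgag
PTBP1: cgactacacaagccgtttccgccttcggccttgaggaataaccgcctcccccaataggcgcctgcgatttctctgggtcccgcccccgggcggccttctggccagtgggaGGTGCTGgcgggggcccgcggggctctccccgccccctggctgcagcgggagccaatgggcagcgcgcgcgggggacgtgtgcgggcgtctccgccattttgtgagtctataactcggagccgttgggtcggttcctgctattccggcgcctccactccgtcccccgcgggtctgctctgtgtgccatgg
A match of these letters is a description of the window and not a binding site.

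Of the 10 genes, PTBP1 was lower in all 3 libraries labelled knockdown, and RBFOX2, SRRM4 and ELAVL2 were higher in all 3. PTBP2, both NOVA genes, ELAVL3 and ELAVL4 were higher in labelled replicates 1 and 2 and level with or below the control in labelled replicate 3. MSI1 did the reverse. A gene was called when all 3 labelled libraries were 2-fold or more to the same side of the control. None of the 10 was called, while 6.37% of the 15880 genes that entered were (1012 genes). All 10 entered, which required a mean of the group mean CPMs of at least 1. In bulk RNA, fewer cells of a type and less RNA per cell cannot be told apart.

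**Figure D1:**
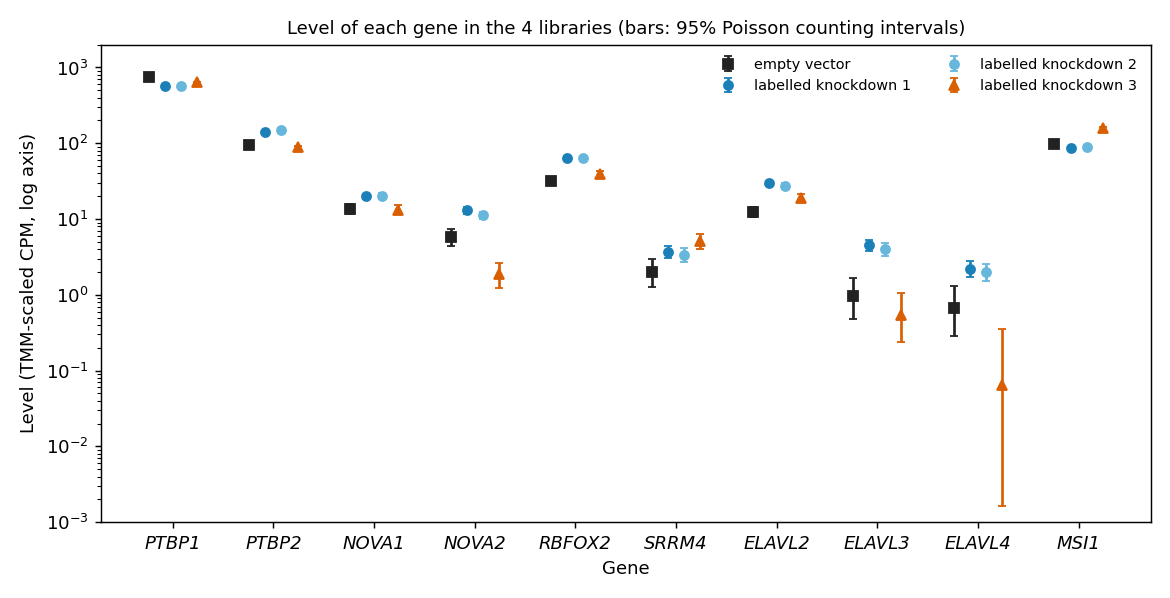
Level of each of the 10 genes in the 4 libraries, in CPM on a log axis, with 95% counting intervals. PTBP1 was the highest in every library, and the lowest point is ELAVL4 in labelled replicate 3, at 0.064 CPM from 2 counts.

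PTBP1 (ENSG00000011304.22; chr19:797075-812327, plus strand) stood at 750.2 CPM in the empty vector library and at 569.1, 575.5 and 634.6 CPM in labelled replicates 1, 2 and 3. All 3 labelled libraries were below the control, and labelled replicate 3 lay closest to it, at -0.24 on the log2 scale with TMM and -0.04 on total counts. The labelled mean was 593.1 ± 36.1 CPM (SD, n = 3), a mean log2 difference of -0.34 ± 0.09 (SD, n = 3), or -0.39 without labelled replicate 3. The control lay outside the range of the labelled libraries, and each ratio's 95% counting interval was below 1: 0.74 to 0.778, 0.748 to 0.787 and 0.822 to 0.87. Being on 1 side of the control in all 3 libraries was common, since 64.4% of all genes were (34.2% lower and 30.1% higher), and 4 of the 10 genes here were. A 62-nt stretch of PTBP1 exons is shared with MIR4745 on the same strand.

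PTBP2 (ENSG00000117569.19; chr1:96721665-96823738, plus strand), the neuronal paralog, stood at 94.0 CPM in the control and at 139.9, 149.6 and 88.0 CPM in the labelled replicates. Labelled replicates 1 and 2 were above the control and labelled replicate 3 was slightly under it, so the groups overlapped. That last direction depended on the scaling: on the log2 scale labelled replicate 3 differed by -0.10 with TMM, 0.10 on total counts and 0.04 with upper quartile scaling. The ratios were 1.49 (1.39 to 1.59), 1.59 (1.49 to 1.70) and 0.936 (0.865 to 1.01). On the log2 scale PTBP2 differed by 0.38 ± 0.42 on average (SD, n = 3), or by 0.62 without labelled replicate 3. With lowess trends of the difference on transcript length and GC removed over all genes, its direction turned, to a mean of -0.36 (-0.16, 0.01 and -0.92 by library). The balance of the pair does not depend on the scaling between libraries. PTBP2 made up 11.1% of the counts of the pair in the control (95% Clopper-Pearson interval 10.5 to 11.8), 19.7% (19.2 to 20.3) and 20.6% (20.1 to 21.2) in labelled replicates 1 and 2, and 12.2% (11.6 to 12.8) in labelled replicate 3. The log2 ratio of PTBP2 to PTBP1 was above the control by 0.98, 1.06 and 0.15, with a mean of 0.72 ± 0.50 (SD, n = 3) and 1.01 without labelled replicate 3. PTBP2 transcripts are long and poor in GC (longest 12014 nt, 34.7% GC) and those of PTBP1 shorter and rich in it (4661 nt, 61.7%). With the same trends removed, an alternative for the ratio that was chosen after the data were seen, the ratio differences were 0.21, 0.32 and -0.54, and their mean was 0.00.

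**Figure D2:**
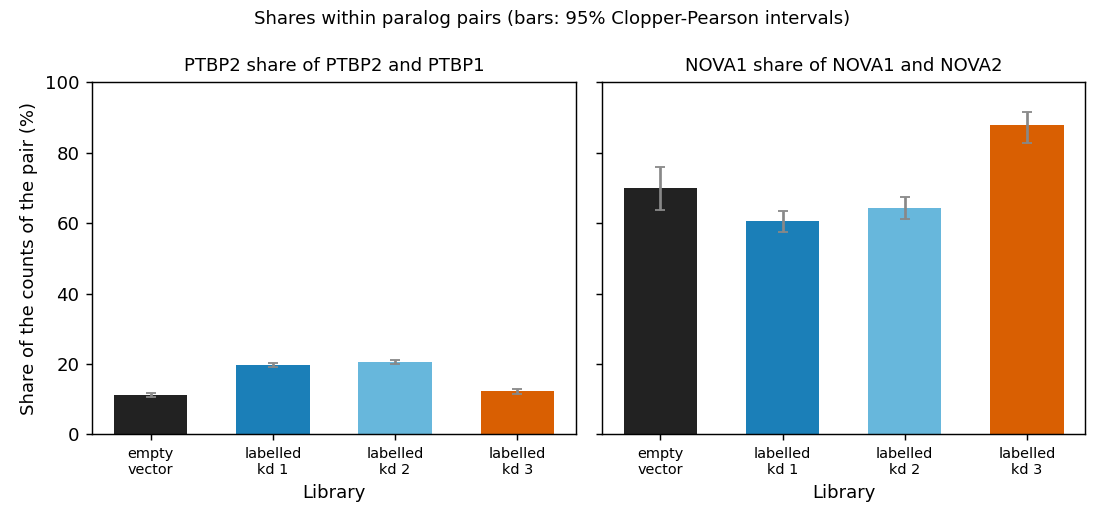
PTBP2 as a percent of PTBP1 and PTBP2 counts, and NOVA1 as a percent of NOVA1 and NOVA2 counts, in each library, with 95% Clopper-Pearson intervals. PTBP2 took 11.1% in the control and 20.6% in labelled replicate 2, and NOVA1 took 87.8% in labelled replicate 3.

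Among the KH-domain NOVA proteins, NOVA1 (ENSG00000139910.20; chr14:26443093-26597754, minus strand) stood at 13.5 CPM in the control and at 20.0, 20.2 and 13.3 CPM in the labelled replicates. Labelled replicates 1 and 2 agreed closely and labelled replicate 3 lay at the control level, with a ratio of 0.987 (0.80 to 1.22) and a log2 difference of -0.02 with TMM and 0.18 on total counts. Its log2 differences averaged 0.37 ± 0.34 (SD, n = 3), 0.57 without labelled replicate 3, and 0.01 with the length and GC trends removed (0.18, 0.24 and -0.40 by library). NOVA2 (ENSG00000104967.8; chr19:45933734-45973546, minus strand) stood at 5.75 CPM in the control and at 13.0, 11.2 and 1.86 CPM. It was above the control in labelled replicates 1 and 2, with ratios of 2.27 (1.75 to 2.97) and 1.95 (1.5 to 2.57), and below it in labelled replicate 3, at 0.323 (0.202 to 0.505). Its mean of 0.18 ± 1.55 on the log2 scale (SD, n = 3) therefore describes no library, and was 1.07 without labelled replicate 3 and -0.24 with the trends removed. In labelled replicate 3, NOVA2 was at least 2-fold lower than in every other library, 1 of the 9 genes that entered this comparison (11.2% of 16087 genes in either direction and 5.92% lower). ELAVL4 was too, but did not enter, since its mean was under 1 CPM. NOVA1 took 70.1% of the NOVA counts in the control (63.8 to 76), 60.5% and 64.2% in labelled replicates 1 and 2, and 87.8% (82.9 to 91.6) in labelled replicate 3.

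RBFOX2 (ENSG00000100320.24; chr22:35738736-36028425, minus strand), the RBFOX member found outside neurons as well, stood at 32.0 CPM in the control and at 64.8, 63.8 and 39.7 CPM in the labelled replicates. Every labelled library was above the control, with ratios of 2.03 (1.82 to 2.27), 2.00 (1.79 to 2.23) and 1.24 (1.09 to 1.42). Labelled replicate 3 lay nearer to the control than to the other replicates. The mean log2 difference was 0.78 ± 0.40 (SD, n = 3), or 1.01 without labelled replicate 3. After removal of the length and GC trends, labelled replicate 3 lay below the control, at -0.28, and the mean was 0.35.

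SRRM4 (ENSG00000139767.10; chr12:118981495-119163051, plus strand), the microexon activator, stood at 2.00 CPM in the control (48 counts) and at 3.69, 3.37 and 5.12 CPM. All 3 labelled libraries were above the control, and labelled replicate 3 was the highest of them. Its ratios of 1.85 (1.18 to 3.00), 1.68 (1.07 to 2.75) and 2.56 (1.61 to 4.23) had wide intervals at these counts. The mean log2 difference was 0.98 ± 0.31 (SD, n = 3), 0.80 without labelled replicate 3, and 0.47 after removal of the trends. Its exons share 25 nt with AC084361.1 on the opposite strand. REST, whose splicing SRRM4 is known to alter, stood at 98.1 CPM in the control and at 138.1, 133.9 and 168.0 CPM, above the control in all 3 labelled libraries, and its isoforms were not measured.

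ELAVL2 (ENSG00000107105.15; chr9:23690104-23826337, minus strand) stood at 12.4 CPM in the control and at 29.6, 27.7 and 18.9 CPM in the labelled replicates. It was higher in all 3, with ratios of 2.38 (2.00 to 2.85), 2.23 (1.87 to 2.68) and 1.52 (1.25 to 1.87). Its log2 differences averaged 1.00 ± 0.35 (SD, n = 3), 1.20 without labelled replicate 3, and 0.98 after removal of the trends.

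ELAVL3 (ENSG00000196361.10; chr19:11451326-11481046, minus strand) stood at 0.958 CPM in the control (23 counts) and at 4.50, 3.99 and 0.544 CPM (280, 238 and 17 counts). Labelled replicates 1 and 2 were above the control by ratios of 4.69 (2.57 to 9.45) and 4.16 (2.27 to 8.41), whereas the interval of labelled replicate 3, 0.205 to 1.51, included 1. The mean log2 difference was 1.14 ± 1.65 (SD, n = 3), with 2.09 for labelled replicates 1 and 2 alone. In GENCODE 29 its exons share 256 nt with AC008481.3 on the same strand, so its counts are uncertain. ELAVL4 (ENSG00000162374.18; chr1:50048014-50203786, plus strand) had 16 counts in the control, 138 and 120 in labelled replicates 1 and 2, and 2 in labelled replicate 3. These are 0.667, 2.22, 2.01 and 0.064 CPM. Its ratios were 3.33 (1.60 to 8.01), 3.02 (1.44 to 7.30) and 0.0961 (0.00216 to 0.716), and its mean log2 difference of 0.16 ± 2.49 (SD, n = 3) joins opposite directions, with 1.60 for labelled replicates 1 and 2 alone. In all 3 neuronal ELAV genes, labelled replicates 1 and 2 were the highest of the 4 libraries. ELAVL3 and ELAVL4 were below the control in labelled replicate 3, ELAVL3 within its interval, and ELAVL2 was not.

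MSI1 (ENSG00000135097.7; chr12:120341330-120369180, minus strand) stood at 96.9 CPM in the control and at 87.0, 88.6 and 158.0 CPM in the labelled replicates. Labelled replicates 1 and 2 were slightly under the control, with ratios of 0.898 (0.838 to 0.962) and 0.915 (0.854 to 0.981), and labelled replicate 3 was above it, at 1.63 (1.52 to 1.75). These averaged 0.14 ± 0.49 on the log2 scale (SD, n = 3), and -0.14 without labelled replicate 3. Removal of the trends put labelled replicates 1 and 2 at 0.04 and 0.07, and labelled replicate 3 at 0.88.

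**Figure D3:**
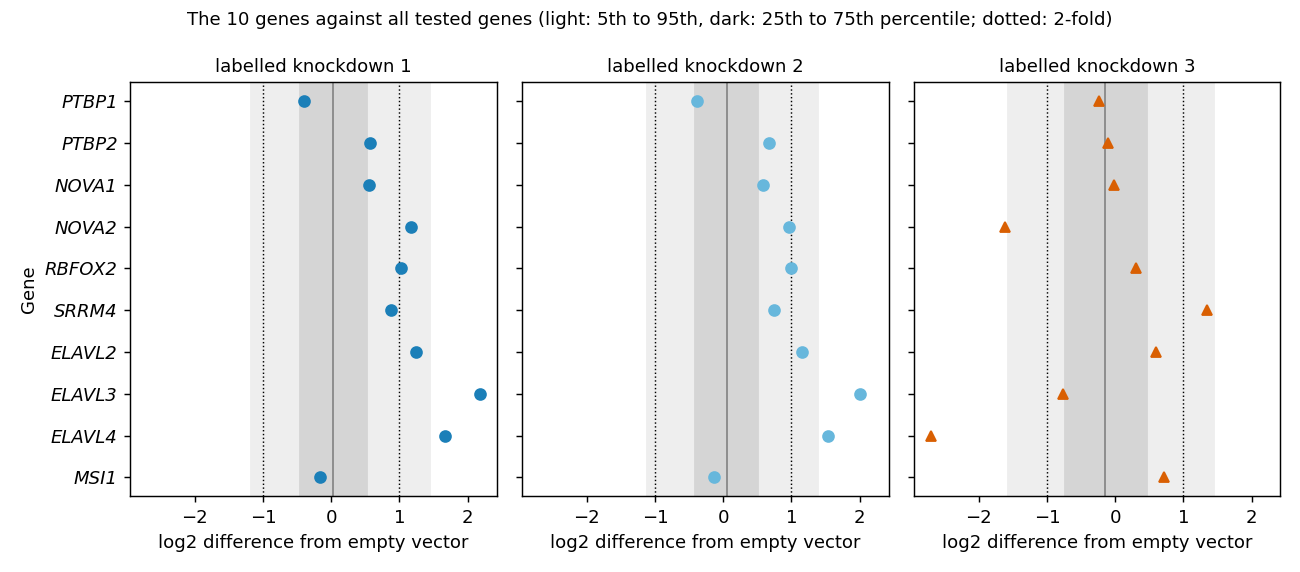
Log2 difference from the empty vector library for each gene in labelled replicates 1, 2 and 3, over bands that hold the 5th to 95th and 25th to 75th percentiles of all tested genes, with dotted lines at 2-fold. ELAVL3 lies at 2.18 and 2.01 in labelled replicates 1 and 2, above the 95th percentiles of 1.45 and 1.39. ELAVL4 lies at -2.70 in labelled replicate 3, under the 5th percentile of -1.57. Both entered only through labelled replicates 1 and 2, where they were high.

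Library by library, 8 of the 10 genes had a counting interval above 1 in labelled replicate 1 and the same 8 in labelled replicate 2, with PTBP1 and MSI1 below 1 in both. Most genes excluded 1 at these depths: the interval lay above 1 for 36.7% and below 1 for 33.4% of all tested genes in labelled replicate 1 (70.1% in either direction), and for 36.6% and 32.1% in labelled replicate 2 (68.7%). In labelled replicate 3, 4 were above (RBFOX2, SRRM4, ELAVL2 and MSI1), 3 were below (PTBP1, NOVA2 and ELAVL4) and 3 included 1, beside 30.1% above and 41.7% below among all tested genes (71.8% in either direction). In labelled replicate 1, 5 of the 10 were at least 2-fold higher than the control (RBFOX2, NOVA2 and the 3 ELAVL genes), as were 11.3% of all genes, with 18.8% in either direction. In labelled replicate 2, the 3 ELAVL genes were, as were 10.4% of all genes, with 17.1% in either direction. RBFOX2 (1.00 on the log2 scale after rounding) and NOVA2 (0.96) lay just under 2-fold there. In labelled replicate 3, SRRM4 was at least 2-fold higher (11.3% of all genes) and NOVA2 and ELAVL4 lower (15.9%), 3 of 10 beside 27.2% in either direction. Without labelled replicate 3, ELAVL2, ELAVL3 and ELAVL4 were at least 2-fold higher in both remaining libraries, 3 of 10 against 15.1% of all genes in either direction and 9.76% higher. NOVA2, ELAVL3 and ELAVL4 were at least 2-fold lower in labelled replicate 3 than in both other replicates, 3 of 10 against 13.1% of all genes. ELAVL3 and ELAVL4 were under the minimum of 1 CPM in the control (0.958 and 0.667) and in labelled replicate 3 (0.544 and 0.064). They entered only through labelled replicates 1 and 2, where they were high. Their part in these 2-fold counts, the interval counts and the medians that follow is therefore no support. Labelled replicates 1 and 2 differed by at most 0.21 on the log2 scale for any of the 10 genes. The median of the 10 mean log2 differences was 0.38, and of all tested genes -0.02. The first was 0.91 without labelled replicate 3. By library it was 0.95, 0.85 and -0.06, and of all tested genes 0.03, 0.05 and -0.15.

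No gene passed an adjusted p of 0.05 in edgeR's quasi-likelihood test (0.00% of 26029 genes). At an unadjusted p under 0.05 there were 3023 (11.6%, and 6.42% higher), with 1 of the 10 among them, ELAVL2, which is near the share of all genes. None passed in voom either. The Wald test of DESeq2 called 271 of 15725 genes (1.72%), none of the 10. These tests take their spread from the labelled libraries alone and compare 1 library with them, so no p per gene is given.

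Per kilobase of annotated exon, the order of the genes in the control was PTBP1 at 109.0 CPM per kb, MSI1 at 31.3, PTBP2 at 7.26, RBFOX2 at 3.19, ELAVL2 at 2.42, NOVA1 at 1.34, NOVA2 at 0.662, SRRM4 at 0.226, ELAVL3 at 0.201 and ELAVL4 at 0.0957. Among themselves, the genes from PTBP1 to NOVA2 kept this order in all 4 libraries. In labelled replicate 3, NOVA2 (0.214) lay below SRRM4 (0.579). In the control, SRRM4 (0.145 to 0.336) and ELAVL3 (0.102 to 0.356) could not be told apart by their counting intervals, nor could ELAVL3 and ELAVL4 (0.0413 to 0.189). The labelled means ran from 86.2 ± 5.24 CPM per kb for PTBP1 to 0.205 ± 0.171 for ELAVL4 (SD, n = 3). PTBP1 was above its neuronal paralog per kb in every library.

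**Figure D4:**
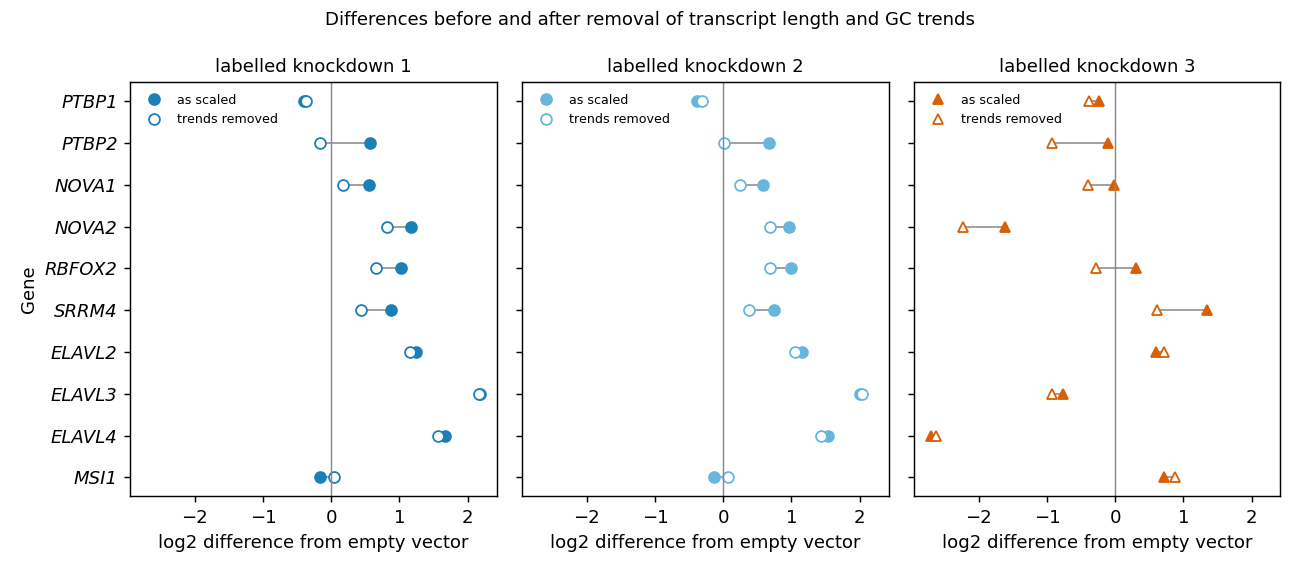
Log2 difference from the empty vector library for each gene before (filled) and after (open) removal of the trends on transcript length and GC, in labelled replicates 1, 2 and 3. PTBP2 moves from 0.57 to -0.16 in labelled replicate 1, while ELAVL2 stays at 1.15 against 1.25.

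The 6 direct paralogs of these genes differed in direction among themselves. SRRM3, the paralog of SRRM4 that also acts on microexons, was the 1 of 6 paralogs past the 2-fold rule. Among all genes, 6.37% were past it, with 2.72% lower. SRRM3 stood at 9.04 CPM in the control and at 4.05, 4.05 and 3.59 CPM, lower in all 3 labelled libraries. ELAVL1, the ubiquitous HuR, stood at 207.5 CPM in the control and at 151.1, 149.9 and 141.2 CPM, under the control by 0.46 to 0.56 on the log2 scale, while ELAVL2 was above it. PTBP3 stood at 349.9 CPM in the control and at 711.4, 708.1 and 326.6 CPM, above the control in labelled replicates 1 and 2, as PTBP2 was, and slightly under it in labelled replicate 3, where total counts put it 0.10 above on the log2 scale. MSI2 stood at 77.9 CPM in the control and at 104.9, 103.5 and 108.1 CPM, above it in each. RBFOX3 (NeuN, a marker of mature neurons) stood at 17.7 CPM in the control and at 12.3, 12.8 and 6.59 CPM, below it in each, and RBFOX1 stayed between 1.93 and 3.27 CPM in all 4 libraries. The median of the 6 mean log2 differences was -0.28.

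Of 21 other tissue-regulated splicing factors, 19 entered, 2 were at least 2-fold higher in all 3 labelled libraries and none was lower, against 3.65% higher and 2.72% lower among all genes. They were MBNL1, a muscleblind splicing factor, at 22.4 CPM in the control and 50.3 ± 4.01 in the labelled libraries (SD, n = 3), and RBM20, the splicing regulator of titin, at 3.58 and 13.1 ± 1.78. Of 27 general splicing factors, all entered and none passed in either direction, and their median mean log2 difference was -0.42. Without labelled replicate 3, 7 of the 27 were at least 2-fold lower and 1 was higher, against 5.36% and 9.76% of all genes. Of 17 cytoplasmic mRNA-binding proteins, 16 entered and CPEB2, a cytoplasmic polyadenylation factor, was higher, at 13.3 CPM in the control and 27.8 ± 0.621 (SD, n = 3). The median of that list was 0.02.

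Of 17 neuronal genes known to be repressed by REST, 14 entered and VGF, a secreted neuropeptide precursor, was at least 2-fold higher in all 3 labelled libraries, at 11.9 CPM in the control and 41.4 ± 12.6 (SD, n = 3), 1 of 14 beside 3.65% of all genes. Without labelled replicate 3, 6 of these were higher and none lower, beside 9.76% higher and 5.36% lower among all genes. SYT4 and STMN2, among the 6, were under 1 CPM in the control (0.667 and 0.333) and in labelled replicate 3 (0.192 and 0.512). They entered only through labelled replicates 1 and 2, where they were high. Their part in this count and in the medians of the list is therefore no support. The medians of the list were 0.88, 0.76 and 0.14 in labelled replicates 1, 2 and 3. Of 8 genes of the REST and miR-124 axis, 7 entered and none passed, and the median was 0.55. Of 7 genes whose RNA is a known target of these proteins, none passed, and the median mean log2 difference was 0.17. DLG4 (0.72) and PKM (-0.91), described next, lay away from that median and do not stand for the list. DLG4, which encodes PSD-95 and whose RNA is repressed through PTBP proteins, stood at 15.8 CPM in the control and at 37.4, 36.1 and 13.0 CPM, above the control in labelled replicates 1 and 2 and below it in labelled replicate 3. PKM, whose mutually exclusive exons PTBP1 helps to choose, stood at 2149.9 CPM in the control and at 1066.9, 1079.9 and 1310.1 CPM, below it in each, and its exon choice was not measured.

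**Figure D5:**
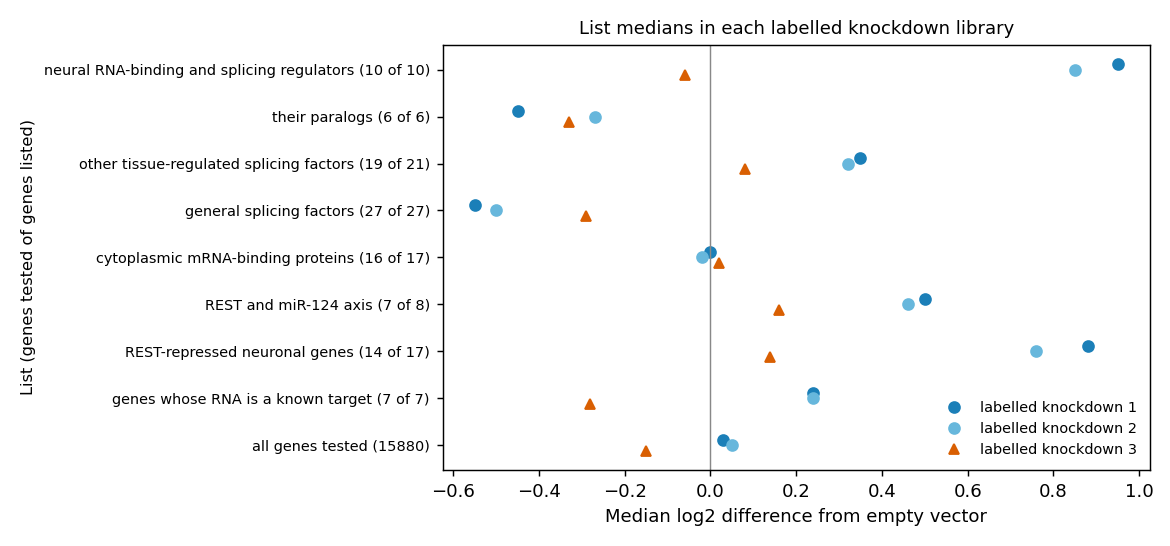
Median log2 difference from the empty vector library for each gene list in labelled replicates 1, 2 and 3, with the genes tested of those listed. The 10 genes sit at 0.95, 0.85 and -0.06, and the general splicing factors at -0.55, -0.50 and -0.29. Of the 10, ELAVL3 and ELAVL4 entered only through labelled replicates 1 and 2, where they were high.

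Markers were read beside these values. Among all genes, 3.65% were at least 2-fold higher in all 3 labelled libraries and 2.72% lower. All 10 embryonal carcinoma markers entered, with a summed level of 8825.6 CPM in the control and 8002.2 to 9677.3 in the labelled libraries, and DNMT3B was at least 2-fold lower in all 3 labelled libraries. The sum covers unlike members: in labelled replicate 3, PODXL was above the control (3865.8 against 1838.2 CPM), while POU5F1 (19.4 against 42.8), DPPA4 (604.4 against 1397.6) and TDGF1 (138.0 against 420.2) were below it. The list's median log2 difference was -0.08, -0.03 and -0.84 in labelled replicates 1, 2 and 3. All 10 neuron markers entered, with a sum of 248.2 CPM in the control and 348.7, 342.7 and 249.3 in the labelled replicates, and MAP2 was at least 2-fold higher. Of 8 neural progenitor markers, 4 entered, and the sum was 170.8 CPM in the control and 309.8, 290.7 and 275.6 in the labelled replicates. NES made up most of that sum (167.3 CPM in the control). PAX6, with no count in the control, was at least 2-fold higher in all 3, and HES5 had no count in any library. FABP7, which did not enter, was below the control in each labelled library (0.833 CPM against 0.0321, 0.268 and 0.384). The neuron sum was highest in labelled replicates 1 and 2, as were PTBP2, RBFOX2, both NOVA genes and the 3 ELAVL genes. SRRM4 and MSI1 were highest in labelled replicate 3, and PTBP1 in the control. INA and NEFL made up most of the neuron sum (126.8 and 57.9 CPM in the control). MAP2 was highest in labelled replicate 3 (34.5 CPM), and RBFOX3 was below the control in each labelled library. Without labelled replicate 3, 4 of the 10 neuron markers were at least 2-fold higher and 0 lower, beside 9.76% and 5.36% of all genes. STMN2, 1 of these 4, was under 1 CPM in the control (0.333) and in labelled replicate 3 (0.512). It entered only through labelled replicates 1 and 2, where it was high, so its part in this count is no support. The smooth muscle sum (4 of 5 markers entered) was 48.9 CPM in the control and 105.1, 100.6 and 61.8 in the labelled replicates. MYOCD of that list was at least 2-fold higher in all 3, at 1.21 CPM in the control and 21.5, 18.9 and 21.4. CNN1 stood at 23.8 CPM in the control and at 50.9, 49.2 and 12.1, below the control in labelled replicate 3. The fibroblast sum (7 of 8) was 513.3 in the control and 657.1, 646.6 and 433.9, and PDGFRB was at least 2-fold higher, at 34.1 CPM in the control and 94.6, 86.6 and 73.6. THY1 made up most of that sum, at 361.8 CPM in the control and 382.3, 393.6 and 210 in the labelled replicates. Without labelled replicate 3, 2 of its genes were at least 2-fold higher and 1 lower, beside 9.76% and 5.36% of all genes. The lower was COL3A1, at 4.04 CPM in the control and at 0.739, 0.57 and 6.21. The part of these cell types in the differences was not tested.

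Over all 3 labelled replicates, ELAVL3 had the largest absolute mean log2 difference of the 10 genes. That rank rested on labelled replicates 1 and 2: without either, its mean was 0.62 or 0.71, below SRRM4 (1.04 or 1.10) and ELAVL2 (0.88 or 0.93). Over the 4 libraries, the genes with the most similar differences among 14817 compared were TNFRSF9 (Euclidean distance 0.113), TPH2 (0.129) and CDNF (0.179). TNFRSF9 had 86, 1066, 826 and 68 counts in the control and the labelled replicates 1, 2 and 3. It was picked for its similarity to ELAVL3, so the shared order of libraries is no separate result.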

How the data were processed

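RNA-seq was analysed from 1 raw count table per library. The authors deposited whole-number counts per gene for 62696 Ensembl identifiers, and no normalised values. Per the submitters' processing notes, STAR 2.7.11b, featureCounts 2.0.6, DESeq2 and the build GRCh38 (hg38) were used, with roles not given; the annotation release and the strand setting of the counting are not given in the sources used here. Per the labels' protocols, ribosomal RNA was depleted and libraries were strand-specific (dUTP). The columns carry a LacZ control and GKAP_KIF27 sets as their names, per the file headers, unlike the sample labels; libraries were grouped by their titles.

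Counts were scaled by TMM (edgeR 4.0.16 in R 4.3.3; factors 0.953, 0.990, 0.969 and 1.094 for the control and labelled replicates 1, 2 and 3). Log2 CPM had a prior count of 2. A gene entered with a mean of the group mean CPMs of at least 1, and was called when every labelled library lay at least 2-fold from the control in the same direction. Between 65.2% and 68.0% of nonzero counts were even, so 95% intervals were computed on counts divided by 2 (exact Poisson for levels, Clopper-Pearson for shares and ratios); they cover counting error only. edgeR's quasi-likelihood test (filterByExpr, Benjamini-Hochberg), DESeq2 1.42.0 and voom in limma 3.58.1 gave counts of calls. On simulated data, the 2-fold rule, the lowess step and edgeR were checked, and the other tools were not. The simulated counts held no length or GC trend, so they could not show whether the lowess step removes one. Coordinates, lengths and GC came from GENCODE 29 (58269 identifiers matched), a release that may differ from the one counted on. Lowess trends had a span of 0.3. The genes and gene lists were chosen with earlier results of these data known. Of each list, at most 4 genes past the 2-fold rule were to be named, all paralogs were named, and the 3 nearest genes were named for the gene with the largest mean difference; REST, DLG4 and PKM were added for their known relation to the 10 genes.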

Additional observations from a re-analysis of the deposited data

How the results depend on the processing

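No paired analysis was possible because there was 1 control library and no replicate number to share. The count of genes at least 2-fold from the control in every labelled library was 1012, and became 2640 with a mean CPM minimum of 0.1, 631 with a minimum of 5, 3116 with a 1.5-fold rule and 672 with length and GC trends removed. Leaving out 1 labelled replicate gave 1100 to 2388, the highest without labelled replicate 3. Of the 10 genes, 0 passed, 2 passed with the 1.5-fold rule (SRRM4 and ELAVL2, beside 19.6% of all genes), and leaving out 1 replicate gave 0 to 3, the highest without labelled replicate 3. Of those 3, ELAVL3 and ELAVL4 entered only through labelled replicates 1 and 2, where they were high. The split of calls was 580 higher and 432 lower, and 734 and 312 on total counts. edgeR called 0 genes and DESeq2 271, and 0 were called with RLE scaling, without a filter and with voom. The ratio of PTBP2 to PTBP1, 0.72 on the log2 scale, was 0.00 with trends removed, an alternative chosen after seeing the data. NOVA2 (0.18) was -0.32 without labelled replicate 1, -0.22 without labelled replicate 2, 1.07 without labelled replicate 3 and -0.24 with trends removed. MSI1 (0.14) was -0.14 without labelled replicate 3, 0.29 without labelled replicate 1 and 0.33 with trends removed, and PTBP2 (0.38) was -0.36 with trends removed. Of 98 values of single genes under the alternatives that can change them, 89 moved by less than the SD between replicates, 4 by more and 5 changed sign. Values with 1 labelled replicate left out could not move by more than the SD, which comes from the same 3 libraries. ELAVL4 rose from 0.16 to 1.60 without labelled replicate 3 and still counted among the 89, so the 89 is not a measure of stability. ELAVL4 did not enter without labelled replicate 1 or 2, nor did ELAVL3, ELAVL4 and SRRM4 at a minimum of 5. The cause was not tested. Depth limited ELAVL4 and ELAVL3 most, with 16 and 23 counts in the control.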
